A study of Mus musculus with 15 samples.

Results

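The genes described here are 10 DNA methylation and imprint maintenance genes, named one by one, out of 53700 genes counted in fully grown mouse oocytes. They are Uhrf1, Dnmt1, Dnmt3a, Dnmt3b, Dnmt3l, Tet3, Dppa3, Trim28, Zfp57 and Zfp445, and each was found once among the gene identifiers of the count files. Their mRNA was measured by polyA RNA sequencing in libraries made from 15 germinal vesicle (GV) oocytes each, that is, oocytes still arrested in the first meiotic prophase. The study set oocytes lacking PADI6 or TLE6, both needed for the cytoplasmic lattices that fill the mouse oocyte, beside oocytes with 1 working copy of the same gene. There were 4 groups: Padi6 heterozygotes (3 replicates) and Padi6 knockouts (3 replicates) on the FVB/N strain, and Tle6 heterozygotes (2 replicates) and Tle6 knockouts (4 replicates) on C57BL/6J. No wild-type group was compared, so every knockout is set against a heterozygote. The labels do not give the age of the animals or how many animals gave the oocytes of a library. The p-values below measure the spread between the labelled biological replicates.

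In dividing cells DNMT1 copies methylation onto newly made DNA, and UHRF1, which binds hemimethylated DNA and histone H3, brings it there. DNMT3A, with its catalytically inactive partner DNMT3L, lays down methylation in the growing oocyte, including maternal imprints. After fertilisation TET3 oxidises methylated cytosine, while DPPA3, also called STELLA or PGC7, protects the maternal genome and keeps UHRF1 out of the oocyte nucleus. ZFP57 and ZFP445 bind methylated imprinting control regions and recruit TRIM28, also called KAP1, which carries further repressors. UHRF1 protein and some of its partners are held on the lattices, so the question put to the RNA was whether the messages of these genes differed when a lattice gene was lost.

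Promoter sequence is shown first, for the 2 maintenance genes that share a motif, as a description to which no change in mRNA below is tied. RefSeq windows (build GRCm38.p6, 250 bases before to 50 bases after a transcript start) matched 9 of the 10 genes, with 18 windows in all. An E2F-type motif, searched on both strands as TTTCCCGC, TTTCGCGC, TTTGCCGC or TTTGGCGC, was found in 2.26% of all 32851 windows. Among the genes described here only Uhrf1 and Dnmt1 held it, each at 1 of its starts: Uhrf1 at chr17:56304063-56304362 (plus strand) and Dnmt1 at chr9:20952574-20952873 (minus strand). In both sequences, given 5′ to 3′ along the gene, capitals mark the motif, and in Dnmt1 the first match, GCGCGAAA, is the motif read on the other strand.
Uhrf1: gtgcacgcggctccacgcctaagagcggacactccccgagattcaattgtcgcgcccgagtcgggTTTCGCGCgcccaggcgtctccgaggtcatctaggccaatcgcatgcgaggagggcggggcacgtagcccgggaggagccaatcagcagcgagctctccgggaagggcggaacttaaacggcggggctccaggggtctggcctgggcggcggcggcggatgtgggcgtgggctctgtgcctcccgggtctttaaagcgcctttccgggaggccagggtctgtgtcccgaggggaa
Dnmt1: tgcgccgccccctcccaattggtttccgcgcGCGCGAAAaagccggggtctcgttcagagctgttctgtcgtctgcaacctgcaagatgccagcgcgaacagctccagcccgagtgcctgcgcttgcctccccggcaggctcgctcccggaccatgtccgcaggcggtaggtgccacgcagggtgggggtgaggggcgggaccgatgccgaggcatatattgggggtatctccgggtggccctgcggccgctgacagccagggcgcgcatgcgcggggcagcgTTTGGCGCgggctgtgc
A match is a run of letters and not evidence of binding. A NOBOX-type motif (TAATTG or TAATTA, both strands), named for an oocyte homeobox factor, lay in 12.4% of all windows and in 0 of these 18.

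The windows also differed in CpG, the dinucleotide that the DNA methyltransferases methylate. The 18 windows held 2 to 47 CpG with a median of 12, against a median of 7 over all windows. The Uhrf1 and Dnmt1 windows with the E2F-type motif held 33 CpG each, and 8.56% of all windows held at least as many. The 2.26% share of that motif was not matched for CpG. Trim28 and Dnmt3l are shown because their mRNA differed between the heterozygotes of the 2 lines. Trim28 (chr7:13023902-13024201, plus strand) held 23 CpG and the first Dnmt3l start (chr10:78042037-78042336, plus strand) held 6. Capitals mark the CpG.
Trim28: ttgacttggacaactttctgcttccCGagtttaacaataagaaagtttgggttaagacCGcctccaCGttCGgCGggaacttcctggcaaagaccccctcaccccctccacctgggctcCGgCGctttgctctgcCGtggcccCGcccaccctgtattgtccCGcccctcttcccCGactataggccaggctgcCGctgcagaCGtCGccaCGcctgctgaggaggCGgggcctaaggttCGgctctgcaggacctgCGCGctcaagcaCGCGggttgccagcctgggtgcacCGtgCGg
Dnmt3l: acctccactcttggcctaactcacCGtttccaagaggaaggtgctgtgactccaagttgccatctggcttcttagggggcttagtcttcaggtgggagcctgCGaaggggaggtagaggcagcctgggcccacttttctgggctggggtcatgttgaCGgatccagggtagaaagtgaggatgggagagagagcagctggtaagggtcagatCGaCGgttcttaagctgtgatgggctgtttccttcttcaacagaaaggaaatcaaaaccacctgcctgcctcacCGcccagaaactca
The Trim28 window was the richer in CpG, and 21.5% of all windows held at least as many. For Dnmt3l that share was 56.4%.

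The libraries held 30100177 to 74947533 counts in genes, and 15 libraries made up 12 biological replicates because 3 Tle6 replicates were each sequenced as 2 technical libraries, A and B, which were summed. Counts per replicate for the genes described here ran from 603 to 313052. For the least abundant of them, Dnmt3b and Zfp445, counting error made up part of the spread between replicates, which was as low as 1.66% (CV) for Dnmt3b in the Tle6 heterozygotes. Levels are given as CPM, a gene's counts scaled to a fixed total of gene counts per library, adjusted by the trimmed mean of M-values (TMM) over the 12 replicates. The targeted genes followed the labels: Padi6 was 1594 to 1746 CPM in its heterozygotes and 18.7 to 24.8 in its knockouts, and Tle6 was 429 to 457 and 61.1 to 97.0. All 10 oocyte markers were at 1 CPM or more in every replicate, and their summed level was 13715 to 17663 CPM. The 13 granulosa and cumulus markers summed to 95.6 to 126 CPM, mostly Cyp19a1 (19.9 to 62.3) and Nr5a2 (38.0 to 69.5), and Cyp11a1 reached 22.5, Has2 11.4, Gja1 7.48 and Hsd3b1 5.59. The other 7 stayed at 2.37 CPM or less, with Foxl2 at 0.0189 to 0.321. Markers of theca and stroma (1.71 to 6.38 CPM over 9 genes) and of blood (0.781 to 2.76 CPM over 9 genes) were lower still. Spike-in counts were 4009 to 13772 in 5 of the Padi6 libraries and 5 to 45 in Padi6 heterozygote 3 and all Tle6 libraries, so levels are shares of each library: total RNA per oocyte was not measured, and fewer oocytes and less RNA per oocyte cannot be told apart.

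One pair of technical libraries stood apart. Libraries A and B of Tle6 heterozygote 1 differed by at most 0.16 on the log2 scale in any of the 10 genes, and those of Tle6 knockout 4 by at most 0.12. Those of Tle6 heterozygote 2 differed by 0.10 to 1.31. For Dnmt3l library A held 135 CPM and library B 54.1, and for Trim28 the values were 84.7 and 46.6 (unscaled CPM). Uhrf1 went the other way, with 326 in A, which was 0.574 of its value in B. The summed oocyte markers were 18160.3 CPM in A and 9842 in B, outside the 12724 to 15063 of the other Tle6 libraries. The value in A was within the 16495 to 18897 of the Padi6 libraries. The 10 genes in A were set beside the Padi6 heterozygotes on the TMM scale. Dnmt3l (134 CPM) and Zfp57 (1166) lay within the heterozygote ranges of 129.5 to 147 and 921 to 1312. The other genes lay outside, among them Dppa3 at 1889 CPM against 1016 to 1164. Library B held 74947533 counts in genes and A 40731634, so B weighed more in the sum. The labels give A and B as technical replicates, and whether both hold RNA of the same oocytes was not tested. The Tle6 heterozygotes are only 2 replicates, so every Tle6 heterozygote value below carries this limit. With A in place of the sum, heterozygote 2 became 325 CPM for Uhrf1, 2110.4 for Dnmt1 and 84.4 for Trim28, on the TMM scale, and with B 774, 4122 and 63.5.

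**Figure D1:**
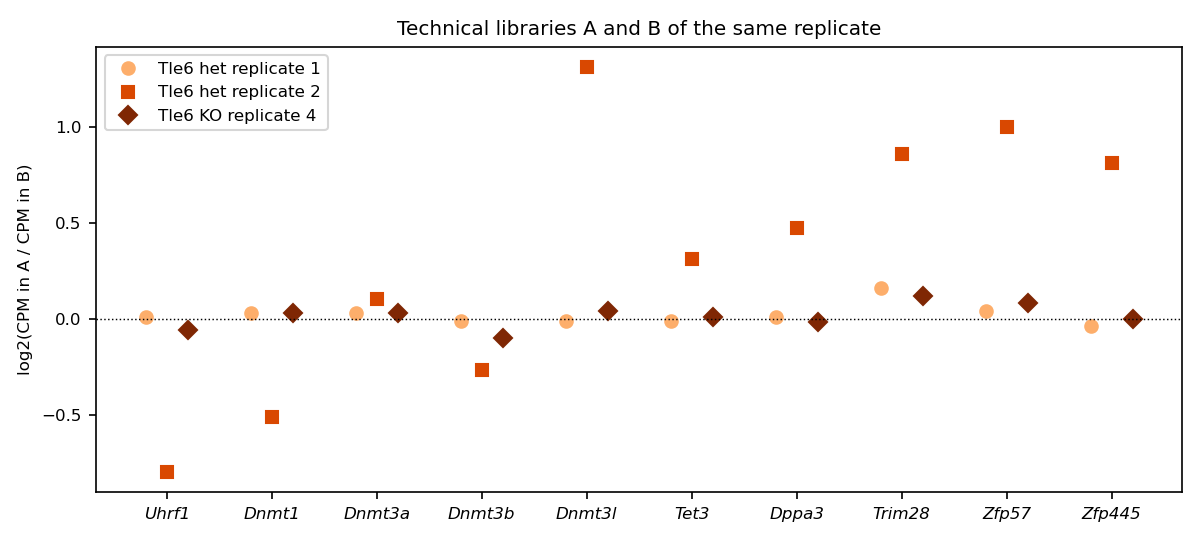
Difference between technical libraries A and B of the same replicate, as log2 of the ratio of unscaled CPM, for the 10 genes (horizontal axis) in the 3 replicates sequenced as a pair of libraries. Points of Tle6 heterozygote 1 and Tle6 knockout 4 lie near 0, and those of Tle6 heterozygote 2 reach 1.31 for Dnmt3l and -0.80 for Uhrf1.

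Levels between genes were compared per kilobase of annotated exon, as CPM per kb. Dppa3 was the most abundant message of the 10 by far, with 1697 ± 506 CPM per kb (SD, n = 12), rank 12 of 21929 protein-coding genes. Dnmt1 (368 ± 66.1) and Zfp57 (268 ± 45.8) followed, and their ranges over the 12 replicates overlapped. Uhrf1 came next at 112 ± 24.2 CPM per kb, above Dnmt3l in every replicate. Dnmt3l (38.0 ± 5.51), Tet3 (32.1 ± 6.63) and Trim28 (26.8 ± 6.48) overlapped as neighbours. Dnmt3b (8.18 ± 2.31), Dnmt3a (5.86 ± 1.00) and Zfp445 (2.55 ± 0.646, rank 7267) were the lowest, again with overlapping neighbours. The 2 partners of de novo methylation therefore stood well apart in mRNA, Dnmt3l above Dnmt3a in every replicate.

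The order was much the same in each group. Dppa3 led in all 4 groups, followed by Dnmt1, Zfp57 and Uhrf1 in that order, and Zfp445 was last. Dnmt1 and Zfp57 overlapped in both Padi6 groups. In the Tle6 knockouts Dnmt1 was the higher throughout (295 to 364 against 189.9 to 276 CPM per kb). In the Tle6 heterozygotes Dnmt1 was also the higher throughout, but this rested on library B of heterozygote 2. With A alone that replicate had 286 for Dnmt1 and 308 for Zfp57, so the ranges overlapped. Dnmt3a and Dnmt3b overlapped in the Padi6 groups. In both Tle6 groups Dnmt3b was the higher with the exon union as length, at 10.9 ± 1.24 against 4.99 ± 1.06 CPM per kb in the Tle6 knockouts (SD, n = 4). With library A alone, Tle6 heterozygote 2 had 5.89 for Dnmt3b. That lies within the 5.09 to 6.44 of Dnmt3a in the Tle6 heterozygotes with libraries summed. These differences in overlap between the lines were not tested. With the longest transcript in place of the exon union as length, 8 of the 10 genes kept their rank over the 12 replicates. Dnmt3a and Dnmt3b changed places, at 10.1 and 9.67 CPM per kb. By that length Dnmt3a was also the higher on average in the Tle6 heterozygotes (9.91 against 9.51). Dnmt3b stayed the higher in the Tle6 knockouts (12.9 against 8.57).

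**Figure D2:**
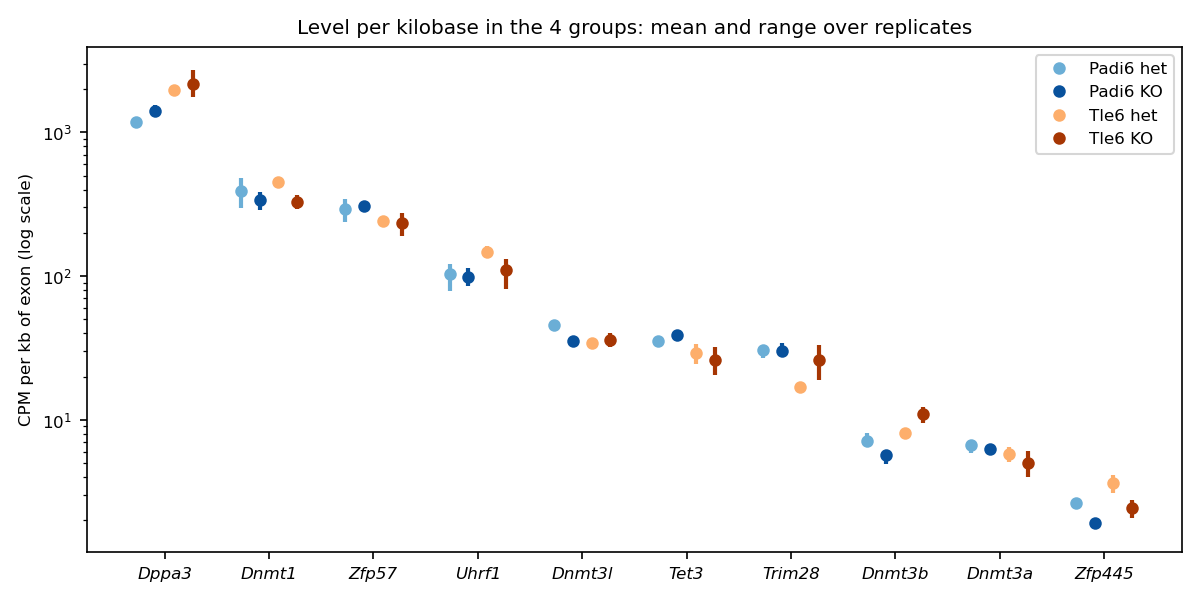
Level of each gene per kilobase of exon (log axis, CPM per kb) in the 4 groups. Points are group means and bars the range over replicates; Dppa3 lies between 1119 and 2712 and Zfp445 between 1.73 and 4.14.

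In Padi6 knockouts against Padi6 heterozygotes, 0 of the 10 genes passed the test (edgeR's quasi-likelihood test, Benjamini-Hochberg adjusted p under 0.05), where 2.41% of 18228 genes passed (1.69% higher and 0.724% lower). At an unadjusted p under 0.05 there were 4 of 10, against 18.6% of all genes. The 4 were Dnmt3l, Zfp445, Dnmt3b and Dppa3. The median log2 change of the 10 was -0.07, with a median over all genes of -0.01, and their median absolute change was 0.17 against 0.22. DESeq2 on the same counts called 2 of the 10 lower, Dnmt3l and Zfp445.

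Neither gene of the maintenance pair passed, and both 95% intervals included 0. Uhrf1 was 338, 460.3 and 517 CPM in the 3 Padi6 heterozygotes and 363, 414 and 486 in the 3 knockouts. The groups overlapped entirely, and the log2 fold change was -0.06 ± 0.16 (SE; 95% interval -0.43 to 0.30; edgeR adjusted p = 0.886). Dnmt1 was 2184, 3554 and 2942 CPM in the heterozygotes and 2139, 2541 and 2827 in the knockouts, a log2 fold change of -0.21 ± 0.18 (interval -0.61 to 0.18; adjusted p = 0.573). For Uhrf1 the interval excludes a fall below 0.744 of the heterozygote level or a rise above 1.23-fold, and for Dnmt1 the bounds were 0.655 and 1.13.

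Among the de novo methylation genes, Dnmt3l gave the smallest p of the 10. It was 139, 127 and 145 CPM in the heterozygotes and 115, 104 and 99.2 in the knockouts. Every knockout lay below every heterozygote, with a log2 fold change of -0.37 ± 0.10 (SE; edgeR adjusted p = 0.0760). DESeq2 gave an adjusted p of 0.0209 for the same change, and over all other settings tried it ranged up to 0.325. Dnmt3b, whose main de novo work is in the embryo, was 32.8, 34.5 and 41.6 CPM in the heterozygotes and 25.2, 30.9 and 31.0 in the knockouts. These groups did not overlap either, but at -0.32 ± 0.13 the change did not pass (adjusted p = 0.233). Dnmt3a, the catalytic partner of DNMT3L, was 98.4, 121 and 112 CPM against 103, 99.9 and 112, and its log2 fold change was -0.08 ± 0.11 (adjusted p = 0.762).

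For the genes that act on methylation after fertilisation, both values were above 0. Dppa3 was 1001, 998 and 1146 CPM in the heterozygotes and 1154, 1235 and 1389.6 in the knockouts. The knockouts lay just above the heterozygotes, with a log2 fold change of 0.26 ± 0.11 (edgeR adjusted p = 0.221). Tet3, the dioxygenase, was 593, 581 and 602 CPM against 607, 676 and 667, a change of 0.13 ± 0.09 that did not pass (adjusted p = 0.479). Its groups did not overlap.

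Among the imprint binding factors, Zfp445 lay lower in the knockouts. It was 20.5, 18.6 and 19.3 CPM in the heterozygotes and 15.2, 14.5 and 12.8 in the knockouts. The groups were apart, and the log2 fold change was -0.46 ± 0.12, the largest of the 10 in size (edgeR adjusted p = 0.0875; 0.0164 by DESeq2; up to 0.376 over the settings tried). Zfp57, the other KRAB zinc finger protein of imprints, was 1292, 905 and 1143 CPM against 1237, 1154 and 1099, with a change of 0.06 ± 0.12 (adjusted p = 0.836). Trim28 was 134, 112 and 138 CPM against 142, 118 and 117, with -0.03 ± 0.11 (adjusted p = 0.930). In all, 2 of the 10 genes had every knockout above every heterozygote (11.7% of all genes did) and 3 had every knockout below (11.5%).

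**Figure D3:**
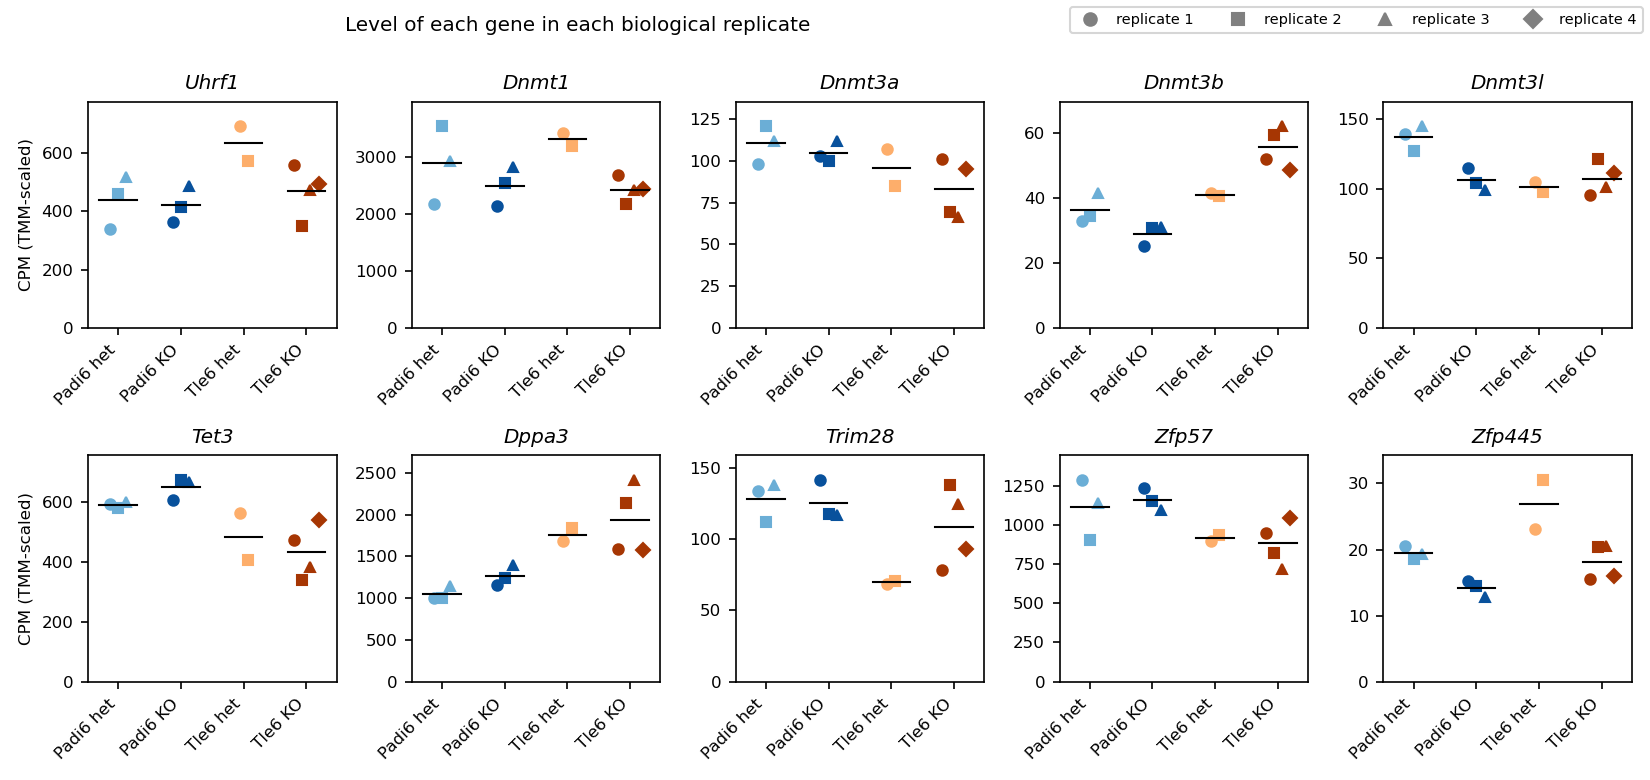
CPM (TMM-scaled, linear axis from 0) of each gene in each of the 12 biological replicates, by group; lines are group means and marker shapes the replicate number. Dnmt3l and Zfp445 lie lower in all 3 Padi6 knockouts than in the Padi6 heterozygotes, and Trim28 is lowest in the 2 Tle6 heterozygotes.

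In Tle6 knockouts against Tle6 heterozygotes, again 0 of the 10 passed, where 1.62% of 20276 genes did (0.587% higher and 1.04% lower). At an unadjusted p under 0.05 there were 4 of 10 (19.0% of all genes): Trim28, Dnmt3b, Dnmt1 and Zfp445. DESeq2 also called 0 of the 10. The median log2 change was -0.06 against 0.06 over all genes, and the median absolute change 0.28 against 0.42. The median standard error of the 10 was 0.22 here and 0.12 in the Padi6 line, so smaller changes could be resolved in the latter.

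For Uhrf1 and Dnmt1 each Tle6 knockout lay below both heterozygotes, but only while library B was part of heterozygote 2. Uhrf1 was 693 and 572 CPM in the heterozygotes and 557, 348, 473 and 495 in the knockouts, with a log2 fold change of -0.39 ± 0.22 (SE; edgeR adjusted p = 0.366). The Uhrf1 value was -0.11 with library A alone for heterozygote 2 (adjusted p = 0.924) and -0.61 with B alone (0.167). Dnmt1 was 3431 and 3203 CPM in the heterozygotes and 2688, 2177, 2419 and 2443 in the knockouts, with -0.40 ± 0.17 (95% interval -0.79 to -0.02; adjusted p = 0.242), and its value was -0.18 with A alone (0.813) and -0.59 with B alone (0.139). With A alone, heterozygote 2 lay below every knockout for both genes, and the groups overlapped. The lowest knockout value of both genes was in knockout 2.

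Dnmt3b and Trim28 were the 2 genes with every Tle6 knockout above both summed heterozygotes. Dnmt3b was 41.6 and 40.6 CPM in the heterozygotes and 52.2, 59.6, 62.3 and 48.7 in the knockouts, with a log2 fold change of 0.48 ± 0.19 (edgeR adjusted p = 0.214; 0.65 with A alone and 0.33 with B alone). Trim28 was 68.8 and 71.0 CPM in the heterozygotes and 78.6, 138, 125 and 93.5 in the knockouts, with 0.68 ± 0.25 (adjusted p = 0.195; 0.52 with A alone and 0.76 with B alone). Its knockouts spread over 1.76-fold, and libraries A and B of heterozygote 2 were 1.82-fold apart. Dnmt3b overlapped between the groups with B alone, and Trim28 with A alone. Zfp445 was 23.1 and 30.6 CPM against 15.5, 20.4, 20.5 and 16.0, with -0.53 ± 0.23 (adjusted p = 0.254; -0.74 without heterozygote 1 and -0.34 without heterozygote 2). Its groups were apart with either library. Thus 2 of 10 genes lay apart and higher (13.4% of all genes) and 3 apart and lower (15.8%), and of these 5 only Zfp445 stayed apart with A alone and with B alone.

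The other 5 genes overlapped between the Tle6 groups. Dnmt3a was 107 and 84.7 CPM against 101, 69.4, 66.4 and 95, and Tet3 was 563 and 407 against 473, 339.9, 384 and 539. Their log2 fold changes were -0.17 ± 0.23 and -0.12 ± 0.24 (edgeR adjusted p = 0.738 and 0.826). Dnmt3l, Dppa3 and Zfp57 changed by 0.12 ± 0.18, 0.18 ± 0.23 and -0.01 ± 0.20 on the same scale (adjusted p = 0.746, 0.709 and 0.984). Dppa3 was 1677 and 1842 CPM in the heterozygotes and 1591, 2135, 2419 and 1581 in the knockouts, which spanned both sides of the heterozygotes.

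The Tle6 knockouts varied among themselves in one pattern. In 9 of the 10 genes, knockouts 2 and 3 both lay on one side of knockouts 1 and 4, as they did in 57.0% of all 20276 genes. They were higher for 4 genes (Dnmt3b, Dppa3, Trim28 and Zfp445) and lower for 5 (Uhrf1, Dnmt1, Dnmt3a, Tet3 and Zfp57). The exception was Dnmt3l. The summed granulosa and cumulus markers were 120.2 and 117 CPM in knockouts 2 and 3 and 105 and 104 in knockouts 1 and 4, with 7, 9, 5 and 5 of the 13 markers at 1 CPM or more. Reads outside any feature were 6.70% and 7.29% in knockouts 2 and 3 against 5.65% to 5.84% in the libraries of knockouts 1 and 4, and reads aligned to more than one place 14.5% in both against 12.1% to 13.5%. The part of the markers and of these read shares in the pattern was not tested.

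The difference between the 2 lines in the knockout effect was then tested itself, as the Padi6 log2 fold change minus that of Tle6. None of the 10 genes passed (0 of 10), where 4.32% of 21392 genes did (3.01% higher and 1.31% lower), and 3 of 10 had an unadjusted p under 0.05 (20.7% of all genes). Dnmt3b had the smallest p: it lay lower in the Padi6 knockouts and higher in the Tle6 knockouts, a difference of -0.76 ± 0.22 (95% interval -1.24 to -0.28; edgeR adjusted p = 0.0734). DESeq2 called it, with -0.77 and an adjusted p of 0.0174, and called none of the other 9. For Trim28 the difference was -0.66 ± 0.28 and for Dnmt3l -0.45 ± 0.19 (edgeR adjusted p = 0.198 and 0.201). Zfp445, lower in both knockouts, differed by 0.11 ± 0.25 (interval -0.43 to 0.66). For Uhrf1 the value was 0.37 ± 0.28 (interval -0.24 to 0.98), and it was 0.05 with library A alone for Tle6 heterozygote 2 and 0.60 with B alone. For Dnmt3b the same settings gave -0.97 and -0.60, for Trim28 -0.55 and -0.74, and for Dnmt3l -0.22 and -0.62.

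**Figure D4:**
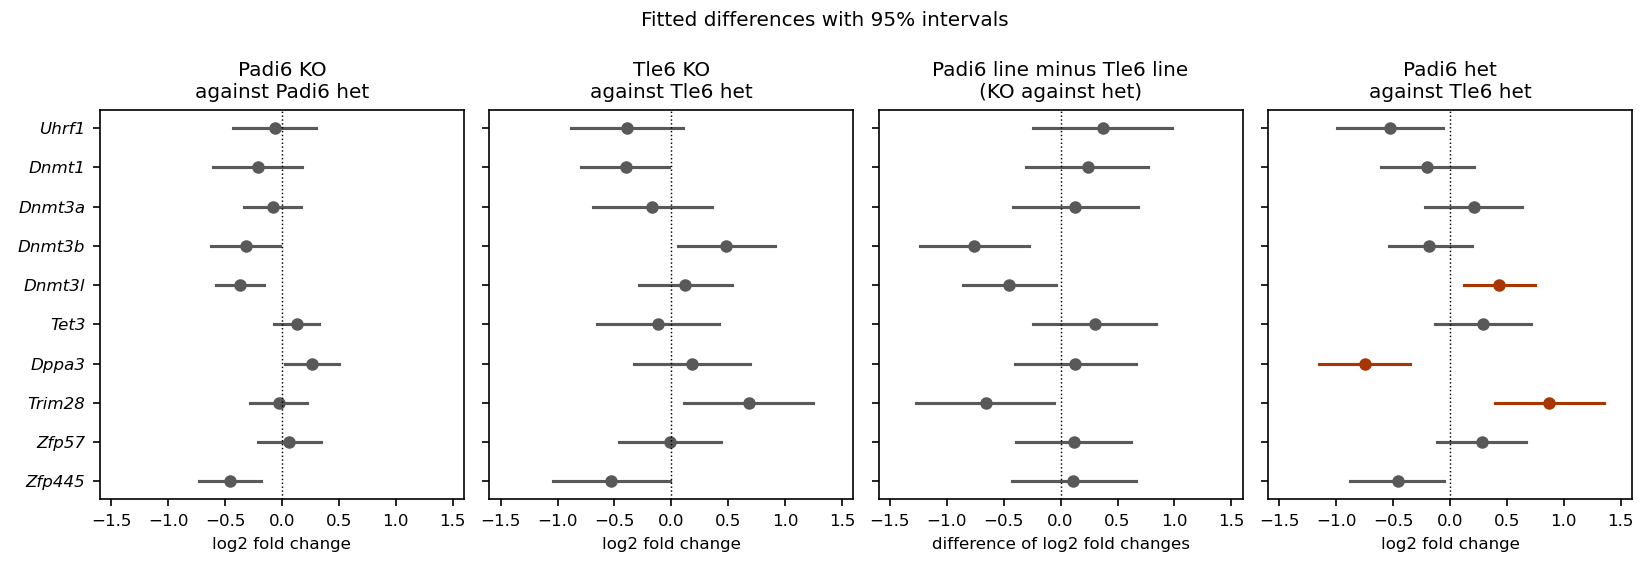
Fitted log2 differences (points) with 95% intervals (bars) for the 10 genes in the 4 comparisons; the third panel is the Padi6 effect minus the Tle6 effect. Red marks an edgeR adjusted p under 0.05, reached only by Dnmt3l, Dppa3 and Trim28 between the heterozygotes of the 2 lines.

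Of the 10 genes, 3 passed the test between Padi6 heterozygotes and Tle6 heterozygotes, a share near the 28.5% of 21392 genes that passed. Trim28 and Dnmt3l were higher in the Padi6 heterozygotes (12.7% of all genes were) and Dppa3 was lower (15.9%). At an unadjusted p under 0.05 there were 5 of 10, against 40.0% of all genes. Strain and targeted gene differ together between the lines, and the spike-in counts nearly so, and these cannot be told apart.

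Trim28 was 134, 112 and 138 CPM in the Padi6 heterozygotes against 68.8 and 71.0 in the Tle6 heterozygotes. That is 1.83-fold higher (95% interval 1.32 to 2.54), a log2 difference of 0.87 ± 0.22 (edgeR adjusted p = 0.00952). Dppa3 was 1001, 998 and 1146 CPM against 1677 and 1842, a log2 difference of -0.75 ± 0.19, or 0.596 of the Tle6 level (adjusted p = 0.00905). Dnmt3l was 139, 127 and 145 CPM against 105 and 97.6, with 0.43 ± 0.15 (adjusted p = 0.0411). None of the 3 overlapped between the groups, and Dnmt3l did with library A alone for Tle6 heterozygote 2.

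These calls rested on few samples. Without Tle6 heterozygote 2, 0 of the 10 genes passed: Dppa3 was -0.68 (edgeR adjusted p = 0.0630), Trim28 0.90 (0.0517) and Dnmt3l 0.38 (0.186). Without Tle6 heterozygote 1, Trim28 was 0.84 (adjusted p = 0.0543). Dnmt3l was 0.21 (0.410) with library A alone for Tle6 heterozygote 2 and also lost its call without the filter on low counts and without any one of Padi6 heterozygotes 1 and 3, Padi6 knockouts 2 and 3 and Tle6 heterozygote 1.

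Of the other 7 genes, Uhrf1 (338, 460.3 and 517 against 693 and 572 CPM) had a log2 difference of -0.53 ± 0.22 (edgeR adjusted p = 0.0834). It was -0.21 with library A alone for Tle6 heterozygote 2 (adjusted p = 0.673), where the groups overlapped, and -0.75 with B alone (0.0188). Zfp445 lay lower in every Padi6 heterozygote, with -0.46 ± 0.19 (adjusted p = 0.0873; 0.0452 by DESeq2; -0.66 and 0.0454 without Tle6 heterozygote 1; -0.24 and 0.500 without Tle6 heterozygote 2). Tet3 lay higher in each, by 0.29 ± 0.19 (adjusted p = 0.293; 0.53 without Tle6 heterozygote 1 and 0.07 without heterozygote 2). In total 3 genes lay apart and higher (27.3% of all genes) and 3 apart and lower (26.6%). Dnmt1, Dnmt3a, Dnmt3b and Zfp57 overlapped, with adjusted p-values of 0.272 to 0.473.

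The wider pathway was read from 8 lists of 92 other genes. The lists include the targeted genes, Padi6 and Tle6. With these counted in, the calls in the knockout comparisons and their difference were 2 of 88, 1 of 89 and 4 of 89. Of all genes 2.41%, 1.62% and 4.32% passed. In Padi6 knockouts the call beside Padi6 itself was Cdca7, a partner of the chromatin remodeller HELLS that supports maintenance methylation. Cdca7 was 23.2 ± 2.53 CPM in the heterozygotes and 36.5 ± 3.18 in the knockouts (SD, n = 3 per group). Its log2 fold change was 0.65 ± 0.13 (SE, edgeR adjusted p = 0.0363). No pathway gene was followed over the other settings tried. In Tle6 knockouts Tle6 alone passed. The difference between the lines passed for Mbd3, a NuRD subunit (-1.53, adjusted p = 0.0324), and Gnmt, a glycine methyltransferase (1.27, adjusted p = 0.0330), besides the targeted genes.

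Between the heterozygotes 15 of 89 pathway genes were higher in the Padi6 line and 13 lower, where 12.7% and 15.9% of all genes were. The targeted genes are counted in, Tle6 among the 15 and Padi6 among the 13. These shares are near those of all genes, and each list below holds few genes. In the list of other methyltransferases and maintenance partners 3 of 12 were higher (12.7% of all genes). They included Paf1, a subunit of the PAF complex (37.2 ± 5.70 against 10.1 ± 0.305 CPM), and Lig1 (29.1 ± 4.32 against 16.6 ± 9.03). Dnmt3c also passed, at low levels in both groups (1.68 ± 0.667 against 0.507 ± 0.252 CPM). Whether Paf1 acts with the methyltransferases was not tested. Of the KRAB and H3K9 genes 4 of 14 were lower and 1 higher (15.9% and 12.7% of all genes). Suv39h2, an H3K9 methyltransferase, was at 155 ± 13.7 against 404 ± 61.5 CPM (edgeR adjusted p = 0.000292). Of methyl donor genes 3 of 11 were higher and 2 lower (12.7% and 15.9% of all genes). Shmt1, a serine hydroxymethyltransferase, showed 25.2 ± 3.03 against 3.77 ± 0.792 CPM (edgeR adjusted p = 1.33e-06). Ctcf, the insulator protein of imprinted loci, was 194 ± 35.8 against 398 ± 70.4 CPM (SD, n = 3 and 2 throughout).

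The gene with the pattern most like Uhrf1 among these 10 was Dnmt1. Likeness was the root mean square difference of centred log2 CPM over the 12 replicates, among 7939 genes with a mean of at least 10 CPM, and is a description. It was 0.188 for Dnmt1, rank 156, where the median gene had 0.435. The other 8 ranked between 2238 (Dnmt3a) and 6564 (Trim28). The 5 genes nearest to Uhrf1 were Snx18 (0.107), Rnf20 (0.115), Arid1a (0.117), Eprs (0.121) and Tgoln1 (0.122).

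Some counts are less certain than their depth implies. A Dppa3 pseudogene, Dppa3-ps, held 12.3 to 42.6 CPM, and reads that aligned to more than one place were set apart in the files. Dnmt3c, a close copy of Dnmt3b, held 0.329 to 2.44 CPM. Aire overlaps 2.24% of the exon bases of Dnmt3l and held 2.79 to 8.41 CPM, and the antisense gene Dnmt3aos overlaps 0.8% of those of Dnmt3a. No source used here says whether counting used the strand, so reads from such overlaps cannot be told apart.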

How the data were processed

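The authors deposited whole-number read counts per gene for each library, not normalized. Per the submitters' processing notes, the tools were bcl2fastq 2.20.0.422, cutadapt 2.8, STAR 2.7.8a and HTSeq 2.0.2 with build mm39; no source used here gives the strand setting or annotation release. Titles of heterozygous libraries carry WT in brackets, and the genotype label was followed. Rows for spike-ins and for reads without a gene (5.39% to 7.29% of reads outside any feature) were left out of library sizes. Versioned Ensembl identifiers were matched to names for 52093 of 53700 genes; lengths came from a GRCm38 annotation.

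Technical libraries were summed per biological replicate, for 12 replicates. Differences were tested on counts with edgeR 4.0.16 (R 4.3.3; TMM, filterByExpr, robust quasi-likelihood test, two-sided, Benjamini-Hochberg over all genes, threshold 0.05), within each line for knockouts and over all 4 groups between lines. The procedure was tested on simulated data. Alternatives were DESeq2 1.42.0, other scaling, no filter, a replicate block, one library of a pair, shared spread and leaving out each replicate. All 10 genes are named in every comparison; of each pathway list up to 3 genes past the threshold, and the 5 genes most like Uhrf1. Members and lists were chosen with earlier results of these data known.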

Additional observations from a re-analysis of the deposited data

How the results depend on the processing

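In Padi6 knockouts 440 genes passed, 1625 without the filter, 1322 by DESeq2, 60 with the spread shared by both lines, 859 with the replicate block, and 61 to 258 with a replicate left out. In Tle6 knockouts 329 passed, 1447 without the filter, 1732 by DESeq2, 120 with library A alone, 2061 with shared spread, 57 with the replicate block, and 119 to 292 with a replicate left out. For the difference between lines the counts were 924, then 2078 without the filter, 2051 by DESeq2, 382 with library A alone, 400 with the block, and 406 to 1465 with a replicate left out. Between heterozygotes they were 6107, 6711 without the filter, 7118 by DESeq2, 3724 with library A alone, 6988 with library B alone, and 3953 to 6283 with a replicate left out. Of the 10 genes, DESeq2 called 2 in Padi6 knockouts and 1 in the difference between lines, and the block called 1 (Dnmt3l, -0.37, adjusted p = 0.0416) in Padi6 knockouts and 0 in Tle6 knockouts and the difference. Between heterozygotes 4 were called by DESeq2 and with library B alone, 2 with library A alone, and 0 to 3 with a replicate left out. Same-numbered Padi6 replicates had correlated deviations of 0.514, 0.039 and 0.285. Those of different number ran from -0.548 to 0.391, the highest for heterozygote 2 with knockout 3. The same-numbered Tle6 pairs gave 0.194 and 0.316. Whether same-numbered replicates were collected as pairs was not tested. No block could be fitted between heterozygotes of different lines.

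None of the changes of direction touched a called value. With a replicate left out, values in Padi6 knockouts spanned 0 for Uhrf1 (-0.22 to 0.06), Dnmt3a (-0.16 to 0.01), Trim28 (-0.12 to 0.02) and Zfp57 (-0.05 to 0.18), in Tle6 knockouts for Tet3 (-0.37 to 0.12) and Zfp57 (-0.10 to 0.08), and in the difference for Dnmt3a (-0.03 to 0.30), Zfp57 (-0.01 to 0.24) and Zfp445 (-0.10 to 0.32). Library A alone for Tle6 heterozygote 2 turned Dnmt3l in Tle6 knockouts (-0.14), Dnmt1 in the difference (-0.03) and Dnmt1 (0.07) and Dnmt3b (0.03) between heterozygotes, and library B alone turned Zfp57 in Tle6 knockouts (0.10). The cause was not tested. Ranking by longest transcript kept 8 of 10 ranks, and Dnmt3a and Dnmt3b changed places. Scaling by spike-ins was not run, since 1000 counts were needed in every library.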
